A study of Mus musculus with 12 samples.

Results

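The genes described here were 10 of the 54532 genes in the deposited tables. They were chosen by name as the kinase core of the Hippo pathway and its regulators: *Stk4*, *Stk3*, *Sav1*, *Lats1*, *Lats2*, *Mob1a*, *Mob1b*, *Nf2*, *Wwc1*, and *Amot*. TPM, the StringTie unit used throughout, is a length-corrected share of the library's transcripts, so it can be compared between genes.

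The Hippo pathway is a kinase cascade that holds back the transcriptional co-activators YAP and TAZ. MST kinases, bound to the scaffold SAV1, phosphorylate LATS kinases and their MOB1 partners, and active LATS phosphorylates YAP and TAZ, which then stay out of the nucleus. In the nucleus YAP and TAZ act through TEAD transcription factors, and *Lats2* is known from other cells as one of their target genes, a negative feedback on the pathway.

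RNA was sequenced from whole distal colon and whole urinary bladder of 9 male mice in 12 libraries, 3 per tissue and genotype. All mice carried floxed *Yap1* and *Wwtr1*, were 5 to 7 weeks old, and received tamoxifen at 1 mg a day in 5 injections, and tissue was taken 7 days after the first of these. Ctrl mice lacked Cre, whereas Y/T KO mice also carried Myh11CreERT2, a tamoxifen-activated Cre recombinase under the promoter of smooth muscle myosin heavy chain, so that deletion is directed to smooth muscle and the other cells of the organ keep both genes. Mice 788 (Ctrl), 783, and 780 (both Y/T KO) gave both tissues, and each of the other mice gave one. In each list of values below, the mice come in the order 788, 786, and 787 for Ctrl colon, 759, 783, and 780 for Y/T KO colon, 784, 785, and 788 for Ctrl bladder, and 782, 783, and 780 for Y/T KO bladder.

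Aligned bases ran from 2.80 to 3.94 gigabases a library. *Yap1* ran from 45.8 to 54.9 TPM in Ctrl colon and from 41.3 to 47.0 TPM in Y/T KO colon. In bladder it ran from 98.6 to 109.8 TPM in Ctrl and from 69.4 to 72.1 TPM in Y/T KO, without overlap (log2 difference -0.54, 95% interval -0.72 to -0.36, limma adjusted p = 0.0625). *Wwtr1* differed by 0.18 (-0.19 to 0.55) in colon and by 0.24 (-0.33 to 0.80) in bladder. These values sum all transcripts of a gene over all cells, so a transcript that has lost only the floxed part still counts. Summed TPM of 11 smooth muscle markers ran from 7825 to 8478 in Ctrl colon and from 5079 to 5979 in Y/T KO colon, and from 36899 to 47550 in Ctrl bladder and from 17942 to 32619 in Y/T KO bladder. Colon epithelial markers summed to at least 9641 TPM in every colon library and to at most 399.0 TPM in bladder, and urothelial markers to at least 4936 TPM in bladder and to at most 175.5 TPM in colon. Between genotypes, the median log2 difference of fibroblast markers was 0.14 in both tissues, that of endothelial markers 0.05 in colon and 0.24 in bladder, and that of leukocyte markers 0.09 and -0.52. For nerve markers it was -0.42 in colon and 0.23 in bladder, for adipocyte markers -0.90 and 0.99, and for seminal vesicle markers, at most 2.18 TPM in sum, 1.13 in bladder, where 1 passed the filter on low values. The 5 pancreatic acinar markers other than *Cela1*, set apart after its values were seen, summed to between 4.71 and 75.8 TPM in Ctrl colon and to at most 0.202 TPM in Y/T KO colon. Whether any of these differences has a part in the values below was not tested, and fewer cells of a type and less RNA per cell cannot be told apart in whole tissue.

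Of the 10 genes, 9 were measured above 0 in every library, and 1, *Lats1*, was listed at 0 throughout. *Mob1a* had the highest mean in all 4 groups, from 88.5 ± 3.26 to 96.3 ± 3.50 TPM (SD, n = 3). *Nf2* and *Sav1* followed in every group, with *Nf2* ahead in colon and *Sav1* ahead in bladder. In Ctrl colon these were 46.6 ± 3.10 and 45.1 ± 5.23 TPM, and *Sav1* exceeded *Nf2* in 1 of the 3 libraries, so their order there did not hold within the spread. The same was true of Ctrl bladder, where *Sav1* exceeded *Nf2* in 2 of 3 libraries. At the low end, *Amot* was lowest of the 9 in Ctrl colon and in both bladder groups, with 3.93 ± 0.946 TPM in Ctrl bladder (SD, n = 3). In Y/T KO colon *Lats2* had the lowest mean, 6.46 ± 0.748 TPM, and was below *Amot* in 2 of 3 libraries. The Ctrl colon library of mouse 786 had the highest TPM of its group for 8 of the 9 genes.

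**Figure D1:**
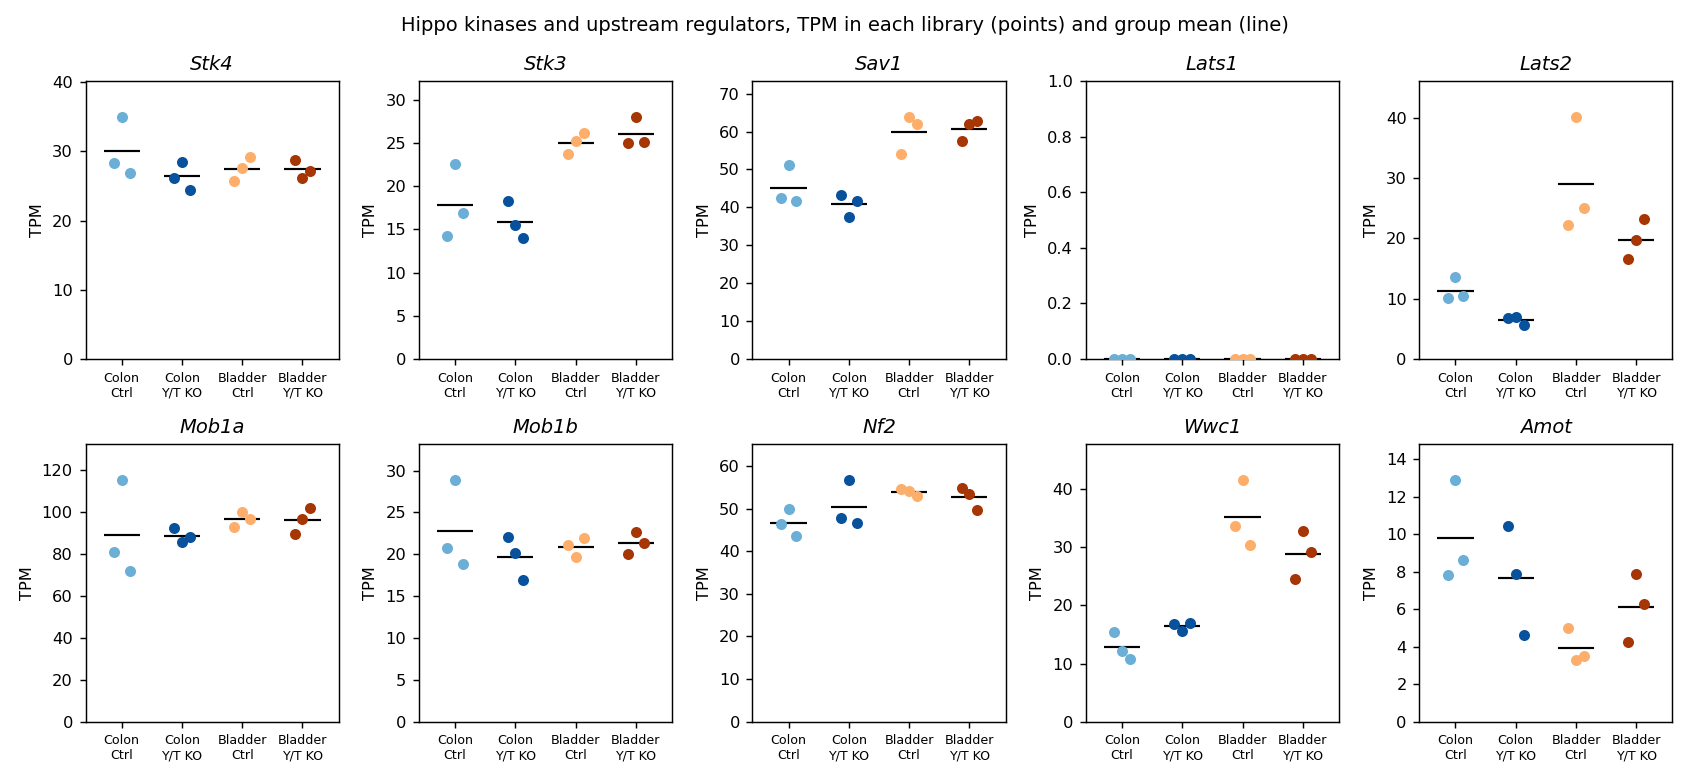
TPM of each gene (vertical axis, from 0) in the 12 libraries, by tissue and genotype (horizontal axis). Points are libraries and lines are means of 3. In this TPM as deposited, *Lats2*, *Wwc1*, *Stk3*, and *Sav1* lay lower in all colon libraries than in any bladder library, and *Lats1* was at 0 in all 12.

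*Stk4* encodes MST1, one of the kinases at the head of the cascade (chr2:164070322-164155524, plus strand, GRCm38, as are all coordinates here). Colon TPM was 28.3, 34.9, and 26.8 for Ctrl and 26.2, 28.5, and 24.5 for Y/T KO mice. Bladder TPM was 25.7, 27.6, and 29.2 for Ctrl and 28.8, 26.2, and 27.1 for Y/T KO mice. The genotypes overlapped in both tissues. The log2 difference, Y/T KO minus Ctrl, was -0.14 (95% interval -0.46 to 0.18) in colon and -0.01 (-0.21 to 0.20) in bladder. Its SD within groups, 0.08 on the log2 scale of scaled TPM, was the smallest of the 9, against a median of 0.31 over all genes tested.

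*Stk3* encodes MST2, the paralog of MST1 (chr15:34875496-35178921, minus strand). Its TPM in colon was 14.2, 22.6, and 16.9 among Ctrl mice, against 18.3, 15.5, and 14.0 with the deletion. Its TPM in bladder was 23.8, 25.2, and 26.2 among Ctrl mice, against 25.0, 28.0, and 25.1 with the deletion. In TPM as deposited every bladder library was above every colon library, but the Ctrl groups overlapped after the scaling used for the tests, and the genotypes overlapped within both tissues. The genotype difference was -0.11 (-0.55 to 0.32) in colon and 0.05 (-0.20 to 0.31) in bladder on the log2 scale.

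*Sav1* encodes the WW-domain scaffold that holds MST kinases (chr12:69965012-69987002, minus strand). Ctrl colon had a TPM of 42.4, 51.1, and 41.7, and Y/T KO colon one of 43.2, 37.4, and 41.8. Ctrl bladder had a TPM of 54.1, 63.8, and 62.0, and Y/T KO bladder one of 57.4, 61.9, and 62.9. All bladder libraries were above all colon libraries in TPM as deposited, with overlap between the Ctrl groups after scaling, and the genotypes overlapped in each organ. The log2 difference between genotypes was -0.10 (-0.41 to 0.20) in colon and 0.02 (-0.22 to 0.26) in bladder.

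*Lats2* encodes a kinase that phosphorylates YAP and TAZ (chr14:57689662-57758388, minus strand). Its colon TPM was 10.1, 13.6, and 10.4 without Cre, against 6.85, 6.92, and 5.60 in the Y/T KO libraries. Its bladder TPM was 22.2, 40.1, and 25.1 without Cre, against 16.5, 19.8, and 23.2 in the Y/T KO libraries. The colon groups did not overlap, whereas in bladder the Y/T KO library of mouse 780 lay above the Ctrl library of mouse 784. The difference in colon was -0.76 on the log2 scale (SE 0.18, 95% interval -1.18 to -0.34), a fold of 0.589. Its unadjusted p was 0.0031, and the adjusted p of 0.280 over all 17500 genes tested missed the threshold. In bladder the difference was -0.52 (SE 0.25, -1.12 to 0.08), with an adjusted p of 0.392, and without the Ctrl library of mouse 785, the highest of the 12, it was -0.26. A test of the difference between the organs gave -0.27 (-0.95 to 0.41, adjusted p = 0.753), and from -0.52 without Ctrl bladder 785 to -0.12 without Ctrl bladder 784. Summed smooth muscle markers, given above, were also lower in every Y/T KO colon library than in every Ctrl colon library. They were likewise lower without overlap in Y/T KO bladder, where the *Lats2* values of the genotypes overlapped. The part of these markers in the *Lats2* values was not tested. Of the stretches of 75 bases in annotated *Lats2* transcripts, 40.5% also occur in transcripts of *Gm49361*, an overlapping gene on the same strand. *Gm49361* was listed at 0 TPM in all 12 libraries, so reads shared by both genes cannot be told apart from *Lats2* reads in these tables.

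*Lats1* encodes the other LATS kinase (chr10:7681214-7716460, plus strand) and was listed at 0 in all 12 libraries. The neighbouring genes *Lrp11* and *Nup43* were also listed at 0 in all 12, and *Pcmt1* and *Katna1* reached at most 0.243 and 0.0515 TPM. *Nup43* encodes a nuclear pore protein and *Pcmt1* a protein repair enzyme, both used by most cells. Of the 11 genes between *Cnksr3* and *Ginm1*, 7 were at 0 throughout, whereas *Cnksr3* had at least 6.98 TPM and *Ginm1* at least 16.8 TPM in every library. The zeros of *Lats1* therefore cover a run of neighbouring genes, and no level, fold, or LATS1 to LATS2 ratio is given.

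*Mob1a* encodes a co-activator that binds LATS kinases (chr6:83326016-83343776, plus strand). In colon its TPM was 80.6, 115.0, and 71.6 for Ctrl, compared with 92.1, 85.7, and 87.8 for Y/T KO. In bladder its TPM was 92.6, 99.6, and 96.6 for Ctrl, compared with 89.1, 96.7, and 101.5 for Y/T KO. The 4 groups overlapped in TPM as deposited, with the widest spread in Ctrl colon, but after scaling Y/T KO colon lay above Y/T KO bladder without overlap. The genotype difference was 0.06 (-0.31 to 0.42) in colon and -0.01 (-0.24 to 0.22) in bladder.

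Its paralog *Mob1b* (chr5:88720855-88764220, plus strand) encodes the same kind of LATS partner. Colon TPM was 20.7, 28.9, and 18.9 for Ctrl and 22.0, 20.2, and 16.9 for Y/T KO mice. Bladder TPM was 21.1, 19.7, and 21.9 for Ctrl and 20.0, 22.6, and 21.4 for Y/T KO mice. In TPM as deposited all groups overlapped, but after scaling Ctrl colon lay above Ctrl bladder without overlap. On the log2 scale the genotypes differed by -0.16 (-0.57 to 0.25) in colon and by 0.03 (-0.24 to 0.30) in bladder.

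*Nf2* encodes merlin, a membrane-linked tumour suppressor that brings LATS to the membrane (chr11:4765845-4849536, minus strand). Its TPM in Ctrl colon was 46.3, 49.8, and 43.7, next to 47.7, 56.7, and 46.6 for Y/T KO. Its TPM in Ctrl bladder was 54.6, 54.1, and 52.9, next to 54.9, 53.4, and 49.5 for Y/T KO. The colon groups overlapped in TPM as deposited, but not after the scaling used for the test, where all Y/T KO values were above all Ctrl values. The difference was 0.14 (-0.16 to 0.45) in colon and -0.04 (-0.25 to 0.17) in bladder.

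*Wwc1* encodes KIBRA, a WW-domain protein that acts with merlin upstream of LATS (chr11:35838400-35980527, minus strand). Its TPM was 15.4, 12.2, and 10.7 in Ctrl colon and 16.8, 15.6, and 16.9 in Y/T KO colon. In bladder it was 33.6, 41.5, and 30.4 in Ctrl and 24.5, 32.7, and 29.2 in Y/T KO. Y/T KO colon lay above Ctrl colon in TPM as deposited, but the groups overlapped after scaling, and in bladder they overlapped on both scales. The difference was 0.41 (SE 0.19, -0.02 to 0.84, adjusted p = 0.540) in colon and -0.28 (SE 0.18, -0.72 to 0.15, adjusted p = 0.513) in bladder, where it ran from -0.41 (without Y/T KO 783) to -0.15 (without Y/T KO 782) with a library left out. The difference between these differences was 0.67 (0.11 to 1.24), with an unadjusted p of 0.0242 and an adjusted p of 0.346 in limma.

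*Amot* encodes angiomotin, a tight junction protein that binds YAP and is itself a LATS substrate (chrX:145446425-145505181, minus strand). Its TPM was 7.85, 12.9, and 8.62 in Ctrl colon and 10.4, 7.89, and 4.65 in Y/T KO colon. In bladder it was 5.02, 3.28, and 3.50 in Ctrl and 4.27, 7.88, and 6.26 in Y/T KO. The genotypes overlapped in both organs, and *Amot* had the widest spread of the 9 genes, an SD within groups of 0.45 on the log2 scale. The difference was -0.35 (SE 0.31, -1.07 to 0.36) in colon and 0.61 (SE 0.31, -0.13 to 1.35) in bladder, with adjusted p of 0.718 and 0.411. With a library left out it ran from -0.61 (without Y/T KO 759) to -0.048 (without Y/T KO 780) in colon, and from 0.38 (without Y/T KO 783) to 0.87 (without Y/T KO 782) in bladder. Between the organs these differed by -0.99 (-2.02 to 0.05, adjusted p = 0.443).

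Set side by side, none of the 9 genes tested passed the threshold between genotypes in either organ. In colon 0 of 9 had an adjusted p under 0.05, against 24 of the 17500 genes tested, or 0.137%. At an unadjusted p under 0.05, *Lats2* was lower, 1 of 9 against 4.59% of all genes, and 0 of 9 were higher against 5.14%. *Lats2* was also the 1 gene of 9 whose scaled colon values lay without overlap below Ctrl, against 7.87% of all genes, and *Nf2* the 1 of 9 above, against 8.24%. In bladder 0 of 9 were called, against 55 of 18237 genes, or 0.302%. At an unadjusted p under 0.05, 0 of 9 were lower and 0 of 9 higher there, against 8.2% and 6.64% of all genes, and 0 of 9 lay without overlap on either side, against 11.4% below and 10.6% above. For the difference between organs, 0 of 9 were called against 0.0607%, and 1 of 9, *Wwc1*, had an unadjusted p under 0.05 against 11.9%. The median log2 difference of the 9 was -0.11 in colon and -0.01 in bladder, against 0.01 and 0.00 over all genes tested. A miss of the threshold does not show that levels were alike. In the same fits all 11 smooth muscle markers were lower in Y/T KO colon, and all 11 in Y/T KO bladder. Yet 0 of 11 were called in either organ, with a lowest limma adjusted p of 0.0851 in colon and 0.0573 in bladder. In colon the 95% intervals ran from -0.46 to 0.18 for *Stk4* and from -1.07 to 0.36 for *Amot*, and in bladder from -0.21 to 0.20 for *Stk4* and from -0.13 to 1.35 for *Amot*.

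**Figure D2:**
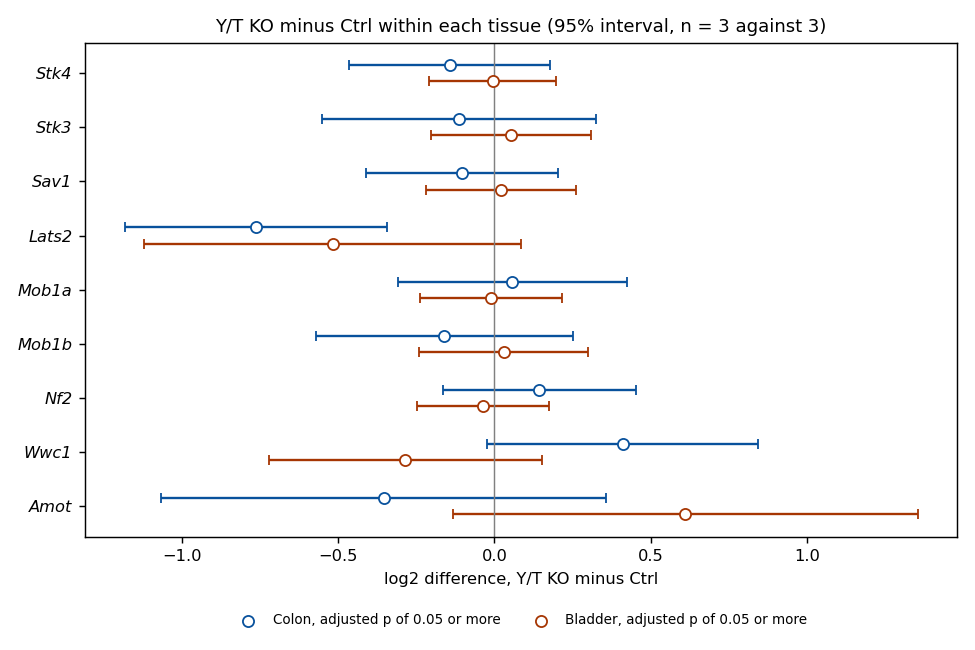
Log2 difference, Y/T KO minus Ctrl (horizontal axis), for the 9 genes above 0, in colon (blue) and bladder (brown). Points are limma estimates on scaled TPM and bars are 95% intervals. The interval of *Lats2* in colon, -1.18 to -0.34, was the one that did not reach 0, and no point had an adjusted p under 0.05.

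Between organs the calls among the 9 genes were no more frequent than among all genes in Ctrl mice. There 4 of the 9 genes passed the threshold, 2 lower in colon than in bladder against 25.3% of all 19773 genes tested and 2 higher against 25.1%. *Wwc1* was lower in colon by a log2 difference of -1.20 (SE 0.18, adjusted p = 0.00021) and *Lats2* by -1.05 (SE 0.22, adjusted p = 0.0018), with every colon library below every bladder library. *Amot* was higher in colon by 1.54 (SE 0.33, adjusted p = 0.0024), a fold of 2.91, again without overlap. *Stk4* was higher by 0.38 (SE 0.10, adjusted p = 0.0096) in scaled TPM, but by 0.12 (adjusted p = 0.472) in TPM as deposited and by 0.26 (adjusted p = 0.0674) in FPKM. TPM as deposited placed the median of all genes at -0.24 in this comparison, against 0.01 after scaling. On that scale 4 of the genes were called lower, *Stk3* and *Sav1* being added, and 1 higher, and 35.7% of all calls were higher instead of 49.8%. FPKM called 3 lower and 1 higher. Smooth muscle markers were lower in Ctrl colon than in Ctrl bladder by a median of -2.18, and all 11 of them passed the threshold. Endothelial markers (7 of 7), fibroblast markers (6 of 6), adipocyte markers (5 of 5), and urothelial markers (10 of 10) were also lower in colon. Colon epithelial markers were higher in colon by a median of 9.24, and all 10 tested passed the threshold. Pancreatic acinar markers (5 of 5 tested) were higher too. Of 9 nerve markers tested, 5 were lower and 4 higher, and 3 passed the threshold in the lower and 0 in the higher direction. The sum over the 10 nerve markers listed ran from 47.4 to 56.7 TPM in Ctrl colon and from 360.2 to 500.2 TPM in Ctrl bladder. Among 6 leukocyte markers 5 were lower, and 4 of them passed the threshold. The part of cell makeup in the organ differences was not tested.

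In Y/T KO mice 4 of the 9 genes were called lower in colon, against 25.6% of all genes, and 0 of 9 higher against 25.8%. These 4 were *Lats2* at -1.32 (SE 0.22, adjusted p = 0.00037), *Wwc1* at -0.52 (SE 0.18, adjusted p = 0.0316), *Stk3* at -0.44 (SE 0.16, adjusted p = 0.0332), and *Sav1* at -0.30 (SE 0.11, adjusted p = 0.0335). *Lats2* and *Wwc1* thus passed the threshold in both genotypes, in the same direction. *Amot* was at 0.55 (-0.18 to 1.28) and *Stk4* at 0.22 (-0.01 to 0.45), neither past the threshold. *Sav1* missed the threshold without limma's trend and robust options (adjusted p = 0.0573). The count of 4 also rested on single libraries. It was 1, *Lats2* alone, without the colon or the bladder library of mouse 783 and without the bladder library of mouse 780. Without the colon library of mouse 780 it was 2, with *Lats2* lower and *Amot* higher by 0.87, and without that of mouse 759 it was 3, *Wwc1* missing the threshold (adjusted p = 0.0551). With TPM as deposited the same 4 genes were called, while 35.2% of all calls were higher instead of 50.2%. Mice 783 and 780 gave both organs, and a fit with the mouse as block called the same number, 4. *Mob1a*, *Mob1b*, and *Nf2* were called in neither genotype, and their intervals in Ctrl were -0.17 to 0.40, 0.04 to 0.69, and -0.18 to 0.28.

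**Figure D3:**
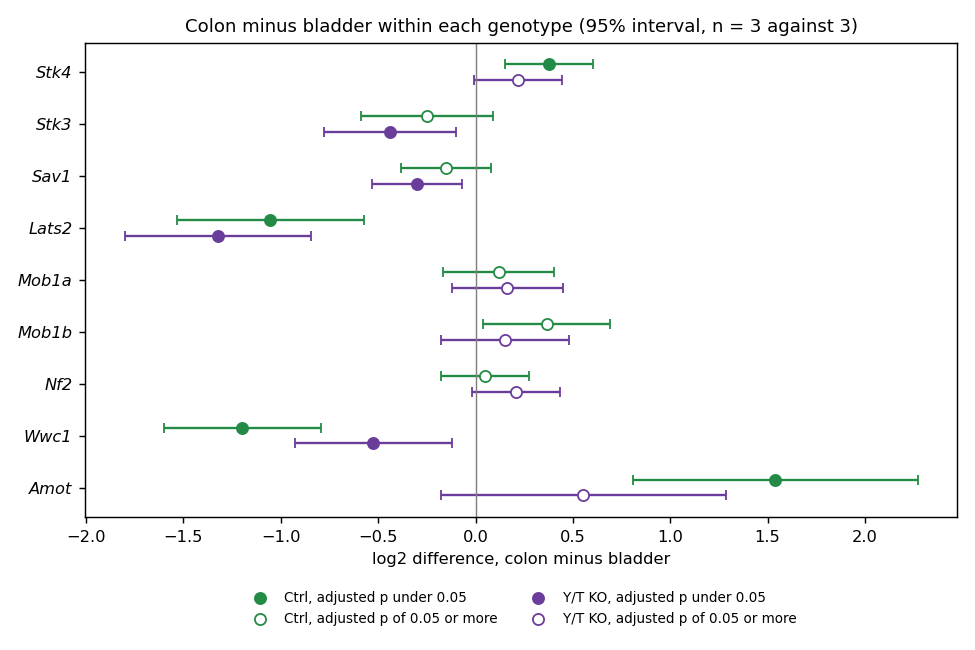
Log2 difference, colon minus bladder (horizontal axis), for the 9 genes above 0, in Ctrl (green) and Y/T KO (purple) mice. Points are limma estimates over 12 libraries, filled where the adjusted p was under 0.05, and bars are 95% intervals. *Lats2* and *Wwc1* lay below 0 in both genotypes, and *Amot* was at 1.54 in Ctrl and 0.55 in Y/T KO.

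A ratio of paralogs within a library does not depend on scaling between libraries. *Stk3* was at 0.504, 0.647, and 0.630 of the level of *Stk4* in Ctrl colon and at 0.699, 0.545, and 0.572 in Y/T KO colon. In bladder the ratio was 0.924, 0.915, and 0.895 in Ctrl and 0.869, 1.07, and 0.925 in Y/T KO. MST2 transcripts were thus nearly as abundant as MST1 transcripts in bladder and less abundant in colon, with no overlap between the organs in either genotype. The difference of mean log2 ratios was -0.63 in Ctrl and -0.66 in Y/T KO, each with p = 0.1 in an exact two-sided permutation test, the smallest p that 3 against 3 libraries allow, and 0.2 after adjustment over 8 comparisons. These tests between organs treated all libraries as separate, although some mice gave both organs. Between genotypes the *Stk3* ratios overlapped in both organs, with p = 1 in colon and 0.7 in bladder in the same exact test.

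*Mob1a* exceeded *Mob1b* in every library, by 3.87, 3.97, and 3.77 times in Ctrl colon and by 4.16, 4.24, and 5.18 times in Y/T KO colon. In bladder the ratio was 4.38, 5.04, and 4.40 in Ctrl and 4.43, 4.26, and 4.74 in Y/T KO. The colon ratios of Y/T KO mice were all above those of Ctrl mice, by a mean of 0.22 on the log2 scale (0.12 without Y/T KO 780), and the Ctrl colon ratios were all below the Ctrl bladder ratios, by 0.25. Both comparisons had p = 0.1 in the exact permutation test and 0.2 after adjustment. No stretch of 75 bases was shared between annotated transcripts of the members of either pair.

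**Figure D4:**
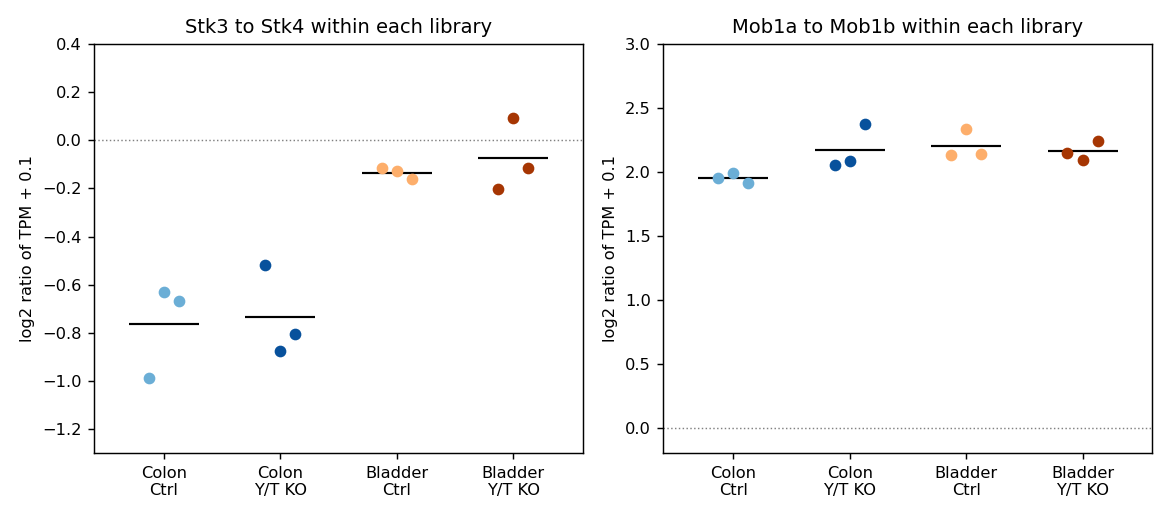
Log2 ratio of TPM + 0.1 (vertical axis) of *Stk3* to *Stk4* (left) and of *Mob1a* to *Mob1b* (right) in the 12 libraries by group. Points are libraries, lines are means of 3, and the dotted line marks equal levels. The *Stk3* ratios of all 6 bladder libraries lay above those of all 6 colon libraries.

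Levels were correlated over the 12 libraries among 14496 genes with a mean of at least 1 TPM. Genes with symbols made of Gm and digits, or ending in Rik, had been left out. Of the 14496, the genes whose scaled log2 levels ran most like *Lats2* were *Armcx4* (Pearson r 0.968), *Mtmr10* (0.963), and *Rab7b* (0.955). Those most like *Wwc1* were *Trex2* (0.956), *Apol6* (0.953), and *Paqr3* (0.945), and those most like *Amot* were *Atad1* (0.959), *Mia3* (0.958), and *Akap9* (0.951). These r values describe 4 groups that differ by organ, and the 12 points share mice and scaling.

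A window of 250 bases before the start of transcription was found for 9 of the 10 genes in RefSeq's promoter sequences (GRCm38.p6), and *Stk3* had no entry. The windows were searched for CATTCC, the core letters that TEAD factors are known to bind, on both strands (GGAATG on the other), since *Lats2* is a known TEAD target in other cells. The letters occurred in 2 of the 11 windows of these genes, and in 12.6% of 32851 windows in all. One match lay 106 bases before the start of *Sav1* and one 209 bases before the RefSeq start of *Mob1a*. That *Mob1a* start lies inside the gene model given above, and its window overlaps annotated exons of *Mob1a* and *Mthfd2*. Neither window of *Lats2* held them, nor did the window of *Wwc1*. Both *Lats2* windows lie inside the gene model given above, so the stretch before the 5′ end of that model was not searched. A match is only a match of letters, and its absence here says nothing of sites elsewhere. The windows of *Lats2* and *Wwc1*, the genes that were lower in colon in both genotypes, and that of *Sav1*, with its match in capitals, follow 5′ to 3′ on the strand of the gene, and none overlaps an annotated exon.
Lats2, chr14:57746124-57746373, minus strand: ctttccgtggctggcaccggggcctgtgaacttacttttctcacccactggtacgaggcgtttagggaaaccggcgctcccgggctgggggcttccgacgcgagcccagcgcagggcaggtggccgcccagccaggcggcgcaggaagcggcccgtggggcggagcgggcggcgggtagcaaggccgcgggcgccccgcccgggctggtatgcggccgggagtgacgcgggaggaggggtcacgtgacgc
Wwc1, chr11:35980528-35980777, minus strand: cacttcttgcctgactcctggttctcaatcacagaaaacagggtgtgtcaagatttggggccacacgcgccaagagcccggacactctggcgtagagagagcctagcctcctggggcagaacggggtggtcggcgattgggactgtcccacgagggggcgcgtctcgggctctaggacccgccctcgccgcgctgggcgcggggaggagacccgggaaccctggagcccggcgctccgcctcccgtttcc
Sav1, chr12:69987003-69987252, minus strand: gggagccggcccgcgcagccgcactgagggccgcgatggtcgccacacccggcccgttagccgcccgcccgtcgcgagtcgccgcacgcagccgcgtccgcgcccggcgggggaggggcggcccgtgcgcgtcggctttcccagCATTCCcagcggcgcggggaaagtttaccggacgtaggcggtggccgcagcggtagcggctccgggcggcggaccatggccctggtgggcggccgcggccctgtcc
The bases G and C made up 74.0% of the *Lats2* window, 67.2% of that of *Wwc1*, and 79.2% of that of *Sav1*, against a median of 52.4% over all windows. A further *Lats2* window, at chr14:57734419-57734668, had 44.8%.

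The other genes of the pathway were 56, in 3 lists of 35 upstream genes, 14 inhibitors, and 7 effectors. The inhibitors were members of the STRIPAK phosphatase complex, which acts against MST kinases, and the LIM proteins Ajuba, LIMD1, and WTIP, which act against LATS. The effectors were YAP, TAZ, the TEAD factors, and VGLL4. Of these genes 55 passed the filter on low values, *Map4k2* being the exception. Between genotypes 0 of 55 were called in either organ. In colon 5 had an unadjusted p under 0.05 in the lower and 1 in the higher direction, against 4.59% and 5.14% of all genes, and the median was -0.12. In bladder 9 were lower and 2 higher at that level, against 8.2% and 6.64% of all genes, with a median of -0.15. By list, the medians in colon were -0.09 for upstream genes, -0.24 for inhibitors, and -0.18 for effectors, and in bladder -0.13, -0.08, and -0.32.

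The lowest p in colon among these belonged to *Sike1*, a STRIPAK subunit, at -0.67 (adjusted p = 0.316) and to *Mink1*, a kinase of the MAP4K family, at -0.39 (adjusted p = 0.449). In the higher direction they were *Crb3*, an apical polarity protein of epithelia, at 0.55 (adjusted p = 0.492) and *Map4k4*, a kinase that can act on LATS in place of MST, at 0.54 (adjusted p = 0.539). In bladder, the lowest p in the lower direction belonged to *Yap1*, given above, and to *Tead2*, at -1.05 (adjusted p = 0.149). *Strip2*, a STRIPAK subunit under 3 TPM there, was at 1.22 (adjusted p = 0.163), but at -0.86 in colon (adjusted p = 0.505). Between the organs its differences differed by -2.09 (adjusted p = 0.173). The NDR kinase gene *Stk38l* was at 0.47 in bladder (adjusted p = 0.164). Its paralog *Stk38* was at -0.59 in bladder (adjusted p = 0.151) and -0.30 in colon. NDR kinases are relatives of LATS that also bind MOB1.

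Paralogs of the upstream regulators did not pass the threshold between genotypes either. *Wwc2* was at -0.40 (-0.82 to 0.03) in colon and -0.21 (-0.71 to 0.30) in bladder. *Amotl1* was at -0.05 (-0.60 to 0.51) and 0.24 (-0.12 to 0.60). *Amotl2*, like *Lats2* known as a target of YAP and TAZ in other cells, was at -0.68 (-1.60 to 0.25) in colon and -1.19 (-3.10 to 0.71) in bladder. Its TPM in bladder was 9.83, 88.0, and 24.9 for Ctrl and 8.91, 15.4, and 13.0 for Y/T KO, so that mouse 785 stood far above the others, as it did for *Lats2*. *Amotl1* exceeded *Amot* in all 6 bladder libraries, with 30.9 to 43.4 TPM.

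**Figure D5:**
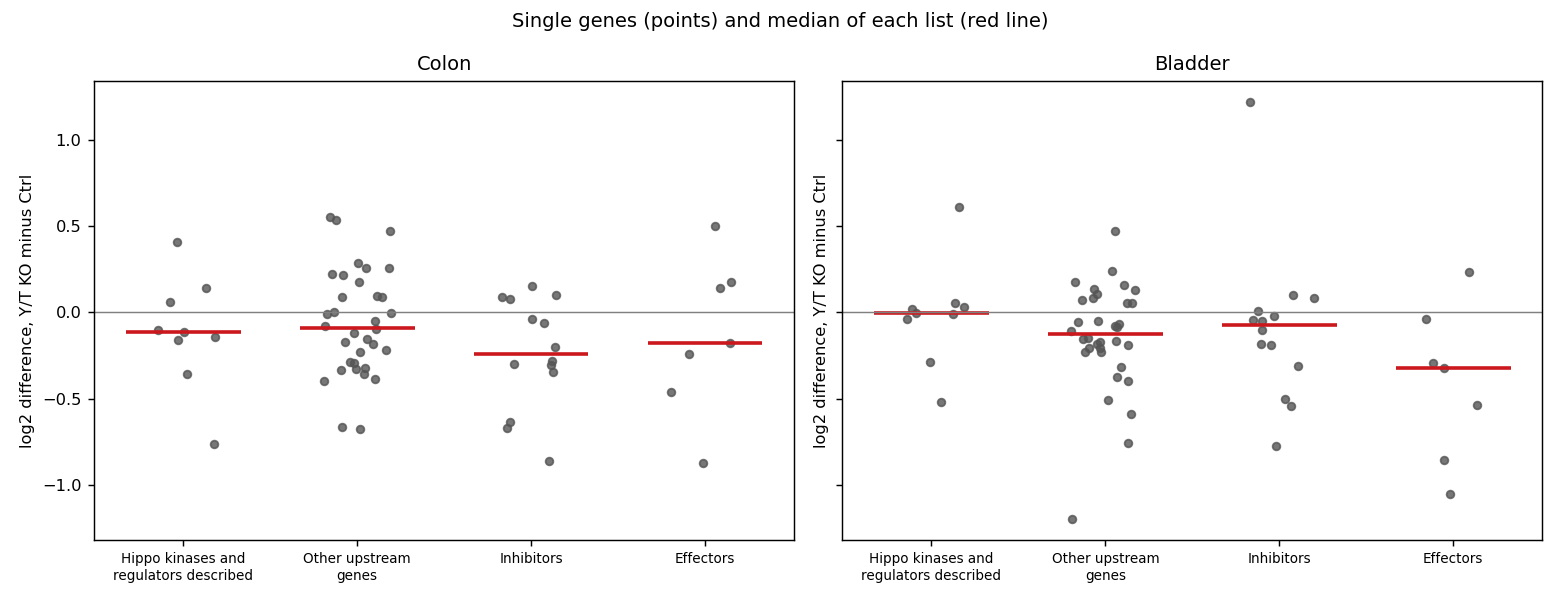
Log2 difference, Y/T KO minus Ctrl (vertical axis), of single genes (points, spread sideways for legibility) in the 9 genes described and in the 3 lists of other pathway genes, in colon (left) and bladder (right). Red lines are medians, from -0.09 to -0.24 in colon and from -0.01 to -0.32 in bladder.

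Between organs many of the other pathway genes passed the threshold, against the shares of all genes given above. In Ctrl mice 23 were lower and 14 higher in colon. Those lower among the upstream genes were *Amotl1*, *Amotl2*, *Frmd6*, *Taok2*, *Map4k1*, *Map4k4*, *Map4k5*, *Rassf3*, *Rassf5*, *Fat4*, *Dchs1*, *Dlg5*, *Ptpn14*, *Stk24*, and *Stk26*, led by *Ptpn14* at -1.95. Among those higher were *Taok3*, *Rassf6*, *Fat1*, *Crb3*, *Patj*, *Ctnna1*, *Stk38l*, and *Stk25*, led by *Rassf6* at 2.34 and *Crb3* at 1.83. Among inhibitors, *Strn3*, *Slmap*, *Ajuba*, and *Wtip* were lower, and those higher included *Strn*, *Strip2*, *Sike1*, and *Ppp2ca*. *Yap1* (-0.75), *Wwtr1* (-1.10), *Tead2* (-0.98), and *Tead3* (-1.35) were lower, and 0 of 7 effectors were higher.

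In Y/T KO mice 18 of the 55 were lower and 14 higher in colon. The upstream genes called lower were *Wwc2*, *Amotl1*, *Frmd6*, *Map4k4*, *Map4k5*, *Rassf3*, *Rassf5*, *Fat4*, *Dchs1*, *Ptpn14*, *Stk24*, and *Stk26*. The upstream genes called higher included *Rassf1*, *Rassf6*, *Scrib*, *Crb3*, *Patj*, *Ctnna1*, *Stk38*, *Stk38l*, and *Stk25*. *Strn3*, *Slmap*, *Ajuba*, *Yap1*, *Wwtr1*, and *Tead3* were lower too, while *Ppp2ca*, *Limd1*, and *Vgll4* were among those higher. *Wwtr1* was at -1.18 and *Yap1* at -0.41 in this comparison.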

How the data were processed

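The 12 libraries, from distal colon or bladder, were grouped by GEO's labels, 3 per tissue and genotype. Stranded polyadenylated RNA was sequenced, and the submitters' processing notes name bcl2fastq, FastQC, HISAT2, StringTie, DESeq2, and GRCm38. The authors deposited 1 StringTie table per library with TPM, FPKM (fragments scaled to gene length and library size), and coverage (mean read depth per base). The counts behind the authors' DESeq2 test were not used here. Where a gene ID had several lines, its values were summed. Coverage served only for depth: aligned bases, read from the commonest value of coverage over FPKM, ran from 2.80 to 3.94 gigabases. The StringTie values come without an estimate of their counting error, so the errors given here rest on the spread between libraries.

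TPM was scaled by size factors (median of ratios), taken within a tissue for genotypes and over all 12 libraries for tissues and the difference between them. Genes that reached 0.5 TPM in 3 or more libraries were fitted as log2 (TPM + 0.1) with limma 3.58.1 (R 4.3.3; trend and robust options), two-sided, adjusted by Benjamini-Hochberg over all genes tested and called under 0.05. Fold changes on this scale understate those of low genes. Paralog ratios were compared by exact permutation of libraries, without the mouse as block (scipy 1.17.1). The fit was tested on simulated data. The changes planted there were larger than the genotype differences of the genes described, so power at those differences was not tested. Alternatives were other pseudocounts, filters, units, and moderation, one fit over 12 libraries, the mouse as block, and each library left out.

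Mice 788, 783, and 780 gave both tissues, by their numbers in the labels. Deviations from group means of their colon and bladder libraries correlated over genes at -0.01, 0.07, and 0.04, and the correlation within mice that limma estimated was 0.05. Pairs of libraries from different mice of the same genotype ran from -0.07 to 0.06. With so few shared mice, these values cannot show whether sharing a mouse matters.

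The 10 genes, the lists of other pathway genes, and the marker lists (smooth muscle, colon epithelium, urothelium, endothelium, fibroblast, leukocyte, nerve, adipocyte, pancreatic acinar, seminal vesicle) were chosen with earlier results of these data known. Named besides the 10 genes were pathway genes called in a comparison (some are not reported here), those 2 with the lowest p in each direction and tissue, 5 paralogs, *Yap1*, *Wwtr1*, and the 3 genes most correlated with *Lats2*, *Wwc1*, and *Amot*. Gene models were those of GENCODE M21. Figures were made with matplotlib 3.10.9.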

Additional observations from a re-analysis of the deposited data

How the results depend on the processing

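The 4 organ calls in Ctrl mice were kept without each library in turn, and *Stk4* alone lost its call under another unit. Without single libraries, *Mob1b* passed the threshold in Ctrl mice (0.46 without Ctrl colon 787, 0.37 without Y/T KO colon 780), and the number of genes called between organs in Y/T KO mice ran from 1 to 4. The adjusted p of *Lats2* in colon ran from 0.186 to 0.346 over settings with all libraries and from 0.247 to 0.673 with a library left out. It was 0.186 with all 12 libraries and the mouse as replicate block, and the block changed no call among the 9 genes. Of the other pathway genes, 1 was called in bladder with all 12 libraries in one fit (*Yap1*, adjusted p = 0.0496) and 0 to 1 with a library left out, the 1 being *Limd1* at -1.16 without Y/T KO 783 (adjusted p = 0.0379). The cause was not tested.

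Directions that turned belonged to small differences. With FPKM in bladder, *Stk4* was at 0.014 and *Mob1a* at 0.011. Between organs in Ctrl mice *Mob1a* was at -0.14 and *Nf2* at -0.21 with TPM as deposited, and at -0.0025 and -0.072 with FPKM. In Y/T KO mice TPM as deposited gave -0.056 for *Stk4*, -0.11 for *Mob1a*, -0.12 for *Mob1b*, and -0.068 for *Nf2*. These unscaled units also moved the median of all genes, by construction of the scaling.

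With a library left out, the colon genotype difference ran from -0.24 to 0.0027 for *Stk3* and from -0.047 to 0.19 for *Mob1a*. In bladder it ran from -0.026 to 0.11 for *Stk3*, -0.033 to 0.015 for *Stk4*, -0.032 to 0.088 for *Sav1*, -0.048 to 0.069 for *Mob1a*, -0.040 to 0.10 for *Mob1b*, and -0.075 to 0.011 for *Nf2*. For *Mob1a* the difference between organs of these ran from -0.067 to 0.19, and colon minus bladder in Ctrl mice from -0.026 to 0.23. Log2 ratios with a library left out, an alternative chosen after seeing the data, ran from -0.085 to 0.10 in colon and from -0.024 to 0.12 in bladder for *Stk3* to *Stk4* between genotypes. For *Mob1a* to *Mob1b* they ran from -0.081 to 0.027 between genotypes in bladder and from -0.090 to 0.067 between organs in Y/T KO mice. The files give no read counts, so the number of reads behind a single value is unknown. Mean coverage per base of *Lats2* in colon was 4.45, 5.05, and 3.72 for Ctrl and 3.24, 2.27, and 2.35 for Y/T KO.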
